A study of Homo sapiens with 12 samples.

Results

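The genes examined were 10 markers of protein folding stress and amino acid stress, HSPA5, HSP90B1, DNAJB9, XBP1, ATF4, DDIT3, TRIB3, ASNS, CHAC1 and SESN2, among the 58735 genes of the deposited count table. They were picked out by gene symbol, from a list drawn up with earlier results of these data known. All 10 passed the filter on low counts, which left 17829 genes for testing. RNA was taken from A549, an established line of human lung adenocarcinoma that grows as adherent cells in standard culture. Some cells were controls and others expressed GFI1, a zinc finger repressor of transcription known from blood development. Both kinds were harvested either from culture-treated plates (attached) or after 48 hours in forced suspension (floating). This gave 4 groups (attached control, attached GFI1, floating control and floating GFI1) with 3 libraries in each. GFI1 was delivered by a lentivirus in which the human PGK promoter drives the gene together with GFP, and infected cells were sorted by GFP. The labels are silent on whether controls received a vector without GFI1. The study's methods state that sorted GFP+ cells went into RNA-Seq and name empty-vector A549 cells for an animal assay, but name no vector for the RNA-Seq controls. If those controls carried none, an effect of GFI1 and one of infection and sorting cannot be told apart. Nor do they say whether the libraries of a group came from separate cultures, and the p values therefore measure only the spread between these libraries, which may be technical.

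The endoplasmic reticulum (ER) folds secreted and membrane proteins. When unfolded proteins build up there, the sensors IRE1, PERK and ATF6 start the unfolded protein response. IRE1 cuts a short intron out of XBP1 mRNA in the cytoplasm, which shifts the reading frame and yields the active transcription factor, and cleaved ATF6 and spliced XBP1 raise ER chaperones. PERK and related kinases that sense amino acid lack, double-stranded RNA or heme lack phosphorylate eIF2alpha. This lowers protein synthesis as a whole and raises the translation of ATF4, which turns on amino acid synthesis genes and, in lasting stress, DDIT3 (CHOP). Because ATF4 is controlled largely in translation and XBP1 in splicing, the mRNA counts used here do not show how much active protein was made.

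The libraries held 17014188 to 20748677 counts. GFI1 itself had 4 to 12 counts in the control libraries and 5154 to 12796 in the GFI1 libraries, so no library went against the genotype on its label. The gene rose from 290.1 ± 4.4 CPM (read counts scaled to library size, with TMM correction for composition) in attached to 560.1 ± 138 CPM in floating GFI1 cells (SD, n = 3 each). Floating GFI1 replicate 3 stood apart from its group on the second principal component, at -13.6 against -20.6 and -23.9, and held 430.2 CPM of GFI1 against 545 and 706. Keratins KRT8, KRT18 and KRT7 and the A549 markers AKR1B10 and ALDH1A1 were abundant in every library, whereas EPCAM had only 6 to 45 counts. The 7 epithelial and A549 markers, all of them detected, together came to 21500 to 22700 CPM in attached control, 7770 to 7850 in attached GFI1, 18400 to 18900 in floating control and 5240 to 6100 in floating GFI1 libraries. The blood markers CD3E and PTPRC had 0 and at most 1 count in any library. The fibroblast marker DCN was at 0, and the 3 fibroblast markers summed to 12.8 to 15 CPM in attached control, 7.51 to 8.39 in attached GFI1, 9.01 to 10.5 in floating control and 4.91 to 6.07 in floating GFI1 libraries. COL1A1 made up most of this sum, at means of 13, 6.37, 9.23 and 3.47 CPM in that order. COL3A1 went the other way with GFI1, at means of 1.1, 1.59, 0.625 and 2.12 CPM. The endothelial markers PECAM1 and VWF had at most 10 and 18 counts and summed to 0 to 0.23 CPM in attached control, 0.951 to 1.13 in attached GFI1, 0.227 to 0.542 in floating control and 0.882 to 1.38 in floating GFI1 libraries. The part of these marker levels in the results was not tested, and in bulk RNA fewer cells of a type and less RNA per cell cannot be told apart. The labels name no batch.

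The promoters of the stress genes were read from RefSeq (GRCh38.p14), 250 bases before to 50 after each listed start, and all 10 genes had an entry. Some of them had several. A gene was counted as holding a match if any of its entries did, whereas the percentages are of promoter entries, so the shares are not in like units. The ER stress element bound by ATF6 with NF-Y was searched as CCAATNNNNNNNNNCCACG on both strands. Its letters occurred in 27 of 35116 promoters, or 0.0769%, and in those of 3 of the 10 genes, the chaperones HSPA5 and HSP90B1 and the factor XBP1. They are shown because all 3 genes are also followed after suspension in the results. The 10 genes were picked as stress markers, so their share beside that of all promoters is a description and no test. Capitals mark the match. The windows are chr9:125241371-125241429 (minus strand), chr12:103930196-103930359 (plus) and chr22:28800583-28800641 (minus).
HSPA5: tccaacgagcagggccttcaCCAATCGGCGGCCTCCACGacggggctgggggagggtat
HSP90B1: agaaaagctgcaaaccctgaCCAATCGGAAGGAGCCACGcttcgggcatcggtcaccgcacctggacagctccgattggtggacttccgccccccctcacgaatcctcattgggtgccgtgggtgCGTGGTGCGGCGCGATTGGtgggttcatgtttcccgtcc
XBP1: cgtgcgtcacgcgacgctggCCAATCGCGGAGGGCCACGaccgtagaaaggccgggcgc

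The match lay at -66 to -48 from the RefSeq start in HSPA5 and at -52 to -34 in XBP1. HSP90B1 held one match at -194 to -176 and another at -89 to -71 on the opposite strand. The element's end, CCACG, which lies within the longer letters, was found in 38.1% of all promoters and in 7 of the 10 genes, and is too common to set them apart. The element TGACGTG, bound by XBP1, was in 1.97% of all promoters and in 0 of the 10. The amino acid response element, at which ATF4 binds with a C/EBP partner, was searched as TGATGNAA on both strands. It occurred in 3.62% of all promoters and in 2 of the 10 genes, ASNS at -68 to -61 (chr7:97872449-97872496, minus) and CHAC1 at -209 to -202 on the opposite strand (chr15:40953242-40953289, plus). A match is a run of letters, not a measured binding site. Both are shown since these are the genes of the ATF4 group with the fewest counts.
ASNS: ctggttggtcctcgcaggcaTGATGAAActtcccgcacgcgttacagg
CHAC1: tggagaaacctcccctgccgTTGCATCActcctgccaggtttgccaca

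The annotated intron for the stretch of XBP1 mRNA that IRE1 removes is 26 bases long. It lies at chr22:28796128-28796153 on the minus strand of GRCh38, within an exon of transcript XBP1-201 and absent from XBP1-202 in GENCODE v44. This intron is shown in capitals with its flanks. The reason is that counts summed over the gene take in the spliced and unspliced forms alike and cannot separate them. A G stands both at the start of the capitals and just after them. The same spliced sequence therefore results if the cuts lie a base further downstream, and the capitals mark the annotation, not measured cut sites.
XBP1: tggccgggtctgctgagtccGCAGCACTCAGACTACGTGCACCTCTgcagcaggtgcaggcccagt

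In attached control cells the genes spanned a wide range of levels per length. In FPKM (CPM divided by the gene length of the deposited table in kilobases), the chaperones HSP90B1 and HSPA5 stood highest, at 228 ± 6.42 and 209 ± 3.94 (SD, n = 3 here and for the other levels). ATF4 followed at 99.5 ± 4.36, XBP1 at 50.6 ± 2.51 and TRIB3 at 32.6 ± 1.37. DNAJB9 at 5.94 ± 0.64, SESN2 at 4.72 ± 0.33 and DDIT3 at 4.31 ± 0.64 were lower still. CHAC1 was at 1.48 ± 0.21 and ASNS at 0.51 ± 0.14. The stress genes therefore differed greatly in counting precision, from 13921 to 22849 counts per library for HSPA5 and HSP90B1 to 25 to 58 for CHAC1 and 28 to 50 for ASNS. These levels are per length. All levels below are CPM and are compared only within a gene.

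**Figure D1:**
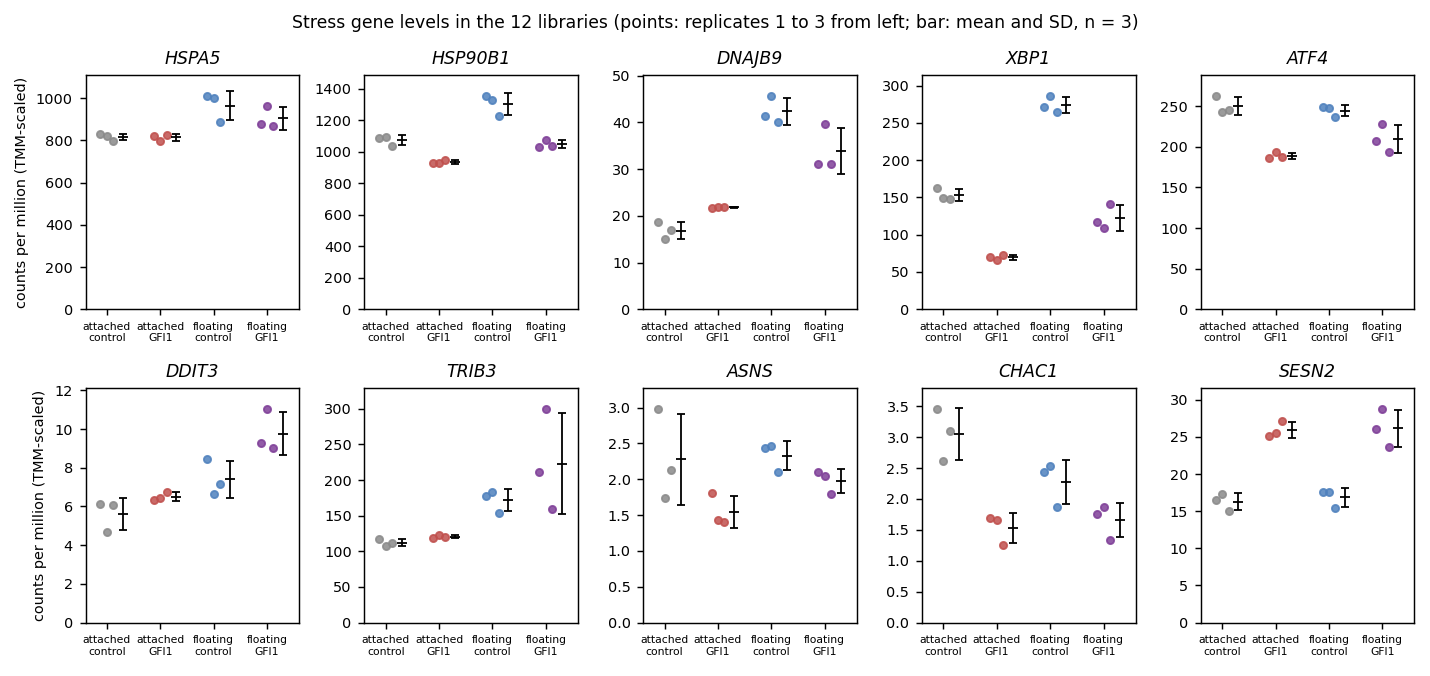
Level of each stress gene in the 12 libraries, in TMM-scaled CPM on linear axes from 0, with the 3 replicates of a group as points and the mean and SD as a bar beside them. XBP1 is lowest in attached GFI1 and highest in floating control cells, SESN2 is higher in all GFI1 libraries, and the floating GFI1 replicates of TRIB3 spread from 159 to 299.

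The effect of GFI1 on these genes was read from GFI1-expressing against control cells, once attached and once floating. In attached cells 7 of the 10 differed, beside 62.3% of all genes, where a gene counts as called when edgeR's quasi-likelihood p, adjusted by Benjamini-Hochberg over all 17829 genes, is at most 0.05. Of these, 2 were higher with GFI1, beside 29.5% of all genes, and 5 lower, beside 32.8%. In floating cells 7 of the 10 differed, beside 60.4% of all genes, 3 of them higher (29.3%) and 4 lower (31.1%). The share of stress genes that differed was thus near that of all genes in either state. XBP1, HSP90B1 and ATF4 were lower and SESN2 was higher in both states, and DNAJB9 was called in opposite directions. The median log2 fold change of the 10 was -0.10 in attached and -0.23 in floating cells, against -0.01 and 0.01 for all genes. The CPM of 8 of the 10 did not overlap between attached control and attached GFI1 libraries, beside 67% of all genes, and 7 did not in floating cells, beside 64.4%. A called change of at least 2-fold was found for XBP1 alone in either state, beside 18.2% of all genes in attached and 17.3% in floating cells. Scaled by library size alone, the median of all genes was 0.14 in both comparisons, and the stress genes then split into 4 higher and 3 lower when attached, and 3 higher against 3 lower when floating.

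The effect of losing attachment was read from floating against attached cells, once per genotype. In control cells 6 of the 10 differed, beside 40.1% of all genes, and all 6 were higher after suspension, a direction taken by 19.6% of all genes. These were HSPA5, HSP90B1, DNAJB9, XBP1, DDIT3 and TRIB3. In GFI1 cells 7 differed, beside 31.3% of all genes, and all 7 were higher, beside 15% of all genes. They were the same 6 genes and ATF4. By edgeR, 0 of the 10 were called lower in either genotype, and 0 were lower at an unadjusted p under 0.05 or by DESeq2, beside 20.5% and 16.3% of all genes lower. The medians were 0.26 in control and 0.26 in GFI1 cells, against 0.01 and 0.00 for all genes. The CPM of 7 genes did not overlap between floating and attached control libraries, beside 49.9% of all genes, and of 7 between floating and attached GFI1 libraries, beside 41.4%. In control cells these were the 6 called genes and CHAC1, which was lower after suspension but not called (-0.42 ± 0.21, adjusted p 0.12). A called change of at least 2-fold was found for DNAJB9 in control cells, beside 5.1% of all genes, and for 0 of the 10 in GFI1 cells, beside 2.8%. Each suspension comparison shares libraries with each GFI1 comparison, whereas the 2 suspension comparisons share none with each other.

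**Figure D2:**
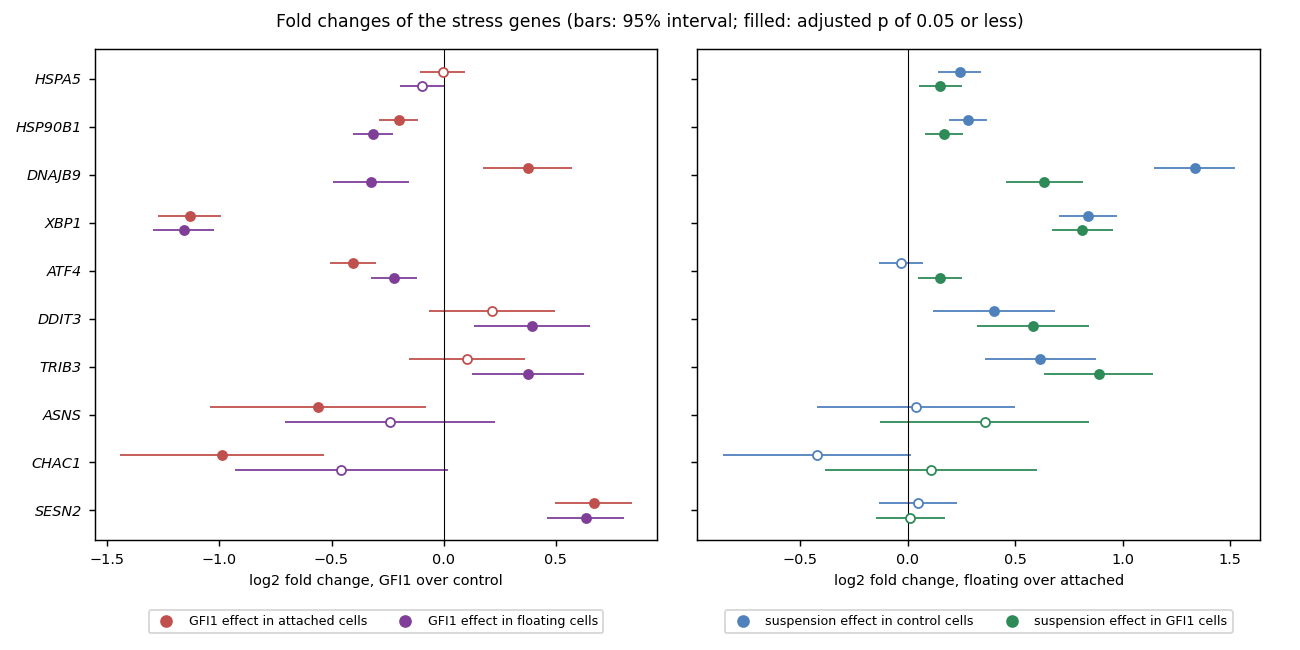
Log2 fold changes of the 10 stress genes, GFI1 over control on the left and floating over attached on the right, with 95% intervals, filled where the adjusted p was 0.05 or less. On the right no filled point lies below 0, and on the left XBP1 lies at -1.13 and -1.16 and DNAJB9 on opposite sides of 0.

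HSPA5 (ENSG00000044574, chromosome 9, 125234853 to 125241330, minus strand) encodes BiP, the main Hsp70 chaperone of the ER, which also holds the sensors inactive. It stood at 829, 822 and 799 CPM in attached control and 821, 797 and 825 CPM in attached GFI1 libraries, ranges that overlap. In floating control libraries it was at 1011, 999 and 885 CPM and in floating GFI1 libraries at 877, 965 and 869.6 CPM. All 6 floating libraries lay above all 6 attached ones. The rise with suspension was 0.24 ± 0.05 log2 units in control cells and 0.15 ± 0.05 in GFI1 cells (SE, adjusted p 0.000295 and 0.0206). The second call was lost without attached GFI1 replicate 2 or floating GFI1 replicate 2, where the change fell to as low as 0.0872. GFI1 made no called difference, at -0.00437 when attached (95% interval -0.11 to 0.10, adjusted p 0.945) and -0.09 when floating (-0.20 to 0.01, adjusted p 0.101). Scaled by library size alone, the attached value became 0.143 and was called (adjusted p 0.00829), and the floating value turned to 0.0352. The floating value was called without floating control replicate 3 (-0.154) or without floating GFI1 replicate 2 (-0.137).

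HSP90B1 (ENSG00000166598, chromosome 12, 103930107 to 103953645, plus strand) encodes GRP94, the Hsp90 of the ER. It was at 1089, 1091 and 1038 CPM in attached control and lower, at 925, 926 and 949 CPM, in attached GFI1 libraries. Floating libraries held 1354, 1330 and 1226 CPM in control and 1028, 1074 and 1038 CPM in GFI1 cells. No floating control library overlapped with any other group. The gene was 1.15-fold lower with GFI1 when attached (log2 fold change -0.20 ± 0.04, adjusted p 0.000242) and 1.25-fold lower when floating (-0.32 ± 0.04, adjusted p 5.53e-07). The attached call was lost with library size only (-0.0533, adjusted p 0.253). Suspension raised it 1.22-fold in control cells (0.28 ± 0.04, adjusted p 7.67e-06) and 1.12-fold in GFI1 cells (0.17 ± 0.04, adjusted p 0.00407). Floating GFI1 and attached control cells, neighbours in the order of levels, did not differ beyond their spread (-0.04, 95% interval -0.12 to 0.05). In GENCODE v44, 14.8% of its canonical transcript overlaps exons of other genes, mainly C12orf73 on the opposite strand. Whether the counting used strand is not given in the sources used here, so reads in these bases cannot be assigned with certainty.

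DNAJB9 (ENSG00000128590, chromosome 7, 108569568 to 108574850, plus strand) encodes ERdj4, a J-domain partner of BiP and a target of XBP1. In attached cells it was at 18.6, 14.99 and 16.9 CPM in control and 21.6, 21.8 and 21.9 CPM in GFI1 libraries. In floating cells it was at 41.4, 45.7 and 40.1 CPM in control and 31.0, 39.6 and 31.0 CPM in GFI1 libraries. The 4 groups did not overlap, and GFI1 cells were the higher ones when attached and the lower ones when floating. The gene was 1.30-fold higher with GFI1 when attached (0.37 ± 0.10, adjusted p 0.00144) and 1.25-fold lower when floating (-0.32 ± 0.08, adjusted p 0.00149). With suspension it rose 2.52-fold in control cells (1.33 ± 0.09, adjusted p 1.15e-11) and 1.55-fold in GFI1 cells (0.63 ± 0.09, adjusted p 2.88e-06). It was the only one of the 10 for which the interaction, the suspension effect in GFI1 cells minus that in control cells, passed the threshold (-0.70 ± 0.13, adjusted p 0.000425), beside 10.8% of all genes, 4.76% higher and 6.01% lower. By edgeR 0 of the 10 were higher, against 1 at an unadjusted p under 0.05 (ATF4) and 0 by DESeq2. Leaving out single libraries moved the interaction between -0.841 and -0.616, past the threshold each time.

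XBP1 (ENSG00000100219, chromosome 22, 28794555 to 28800597, minus strand), the factor made by IRE1 splicing, showed the largest GFI1 effect of the 10. It was at 162, 149 and 148 CPM in attached control and 70.0, 66.2 and 73.3 CPM in attached GFI1 libraries. Levels after suspension were 271, 286 and 264 CPM in control and 117, 108 and 142 CPM in GFI1 cells. The 4 groups did not overlap, and each GFI1 group lay below both control groups. The gene was 2.19-fold lower with GFI1 when attached (-1.13 ± 0.07, adjusted p 2.01e-13) and 2.23-fold lower when floating (-1.16 ± 0.07, adjusted p 4.87e-14). Suspension raised it 1.79-fold in control cells (0.84 ± 0.06, adjusted p 1.14e-10) and 1.76-fold in GFI1 cells (0.81 ± 0.07, adjusted p 1.4e-09). The interaction was -0.03 ± 0.09 (95% interval -0.22 to 0.17, adjusted p 0.914), an interval that leaves room for a difference of either sign. Floating GFI1 cells stayed 1.25-fold below attached control cells (-0.32 ± 0.07, adjusted p 0.000138). All 4 calls held in the 9 other fits tried and without any single library.

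ATF4 (ENSG00000128272, chromosome 22, 39519695 to 39522685, plus strand) was lower with GFI1 and changed little with suspension. It was at 263, 243 and 245 CPM in attached control and 186, 193 and 188 CPM in attached GFI1 libraries. After suspension the gene was at 249, 248 and 237 CPM in control and 207, 228 and 194 CPM in GFI1 cells. The 2 control groups overlapped with each other and lay above all 6 GFI1 libraries. The log2 fold change with GFI1 was -0.40 ± 0.05 when attached (adjusted p 1.32e-07) and -0.22 ± 0.05 when floating (adjusted p 0.00044). The floating call was lost with library size only (-0.0933, adjusted p 0.0899). With suspension the change was -0.03 ± 0.05 in control cells (95% interval -0.13 to 0.07, adjusted p 0.66) and 0.15 ± 0.05 in GFI1 cells (adjusted p 0.025). The call in GFI1 cells was lost when only the 2 groups compared were fitted (adjusted p 0.0611) and without any of attached GFI1 replicates 1 and 3 and floating GFI1 replicates 1 and 2, with values down to 0.0688. The interaction was 0.18 ± 0.07 (adjusted p 0.111) and passed without floating GFI1 replicate 3 (0.235, adjusted p 0.0137).

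DDIT3 (ENSG00000175197, chromosome 12, 57516588 to 57521737, minus strand) encodes CHOP, the factor tied to cell death in lasting ER stress. Its 86 to 200 counts per library came to 6.13, 4.67 and 6.08 CPM in attached control and 6.31, 6.46 and 6.76 CPM in attached GFI1 cells. In floating cells it was at 8.48, 6.62 and 7.14 CPM in control and 9.27, 11.03 and 9.003 CPM in GFI1 libraries. The floating GFI1 libraries were the highest, above every other library. Suspension raised it 1.32-fold in control cells (0.40 ± 0.14, adjusted p 0.0212) and 1.497-fold in GFI1 cells (0.58 ± 0.12, adjusted p 0.000743). With GFI1 it was 1.32-fold higher when floating (0.40 ± 0.13, adjusted p 0.00856), while the attached value was 0.21 ± 0.14 (adjusted p 0.178), and the interaction was 0.18 ± 0.19 (adjusted p 0.622). Scaled by library size alone, the attached value was called (0.361, adjusted p 0.0229). The call in control cells was lost without attached control replicate 2 or floating control replicate 1 (0.277 at the lowest), and the GFI1 call in floating cells without floating control replicate 2 or floating GFI1 replicate 2 (adjusted p up to 0.0557). In GENCODE v44, 35.9% of its canonical transcript overlaps exons of MARS and MBD6 on the opposite strand or AC022506.1 on the same strand.

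TRIB3 (ENSG00000101255, chromosome 20, 362835 to 397559, plus strand) encodes a pseudokinase induced by ATF4 and CHOP. It was at 117, 108 and 112 CPM in attached control and 119, 123 and 119.5 CPM in attached GFI1 libraries. Floating libraries held 178, 184 and 154 CPM in control and 211, 299 and 159 CPM in GFI1 cells. Every floating library lay above every attached one, but floating GFI1 replicate 3 fell within the floating control range and replicate 2 lay far above the others. Suspension raised it 1.53-fold in control cells (0.62 ± 0.12, adjusted p 0.000266) and 1.85-fold in GFI1 cells (0.89 ± 0.12, adjusted p 3.08e-06). The GFI1 effect was 0.11 ± 0.13 when attached (adjusted p 0.487) and 0.38 ± 0.12 when floating (adjusted p 0.00928). The attached value was called when only the 2 groups compared were fitted (0.136, adjusted p 0.00583). The floating value dropped to 0.111 without floating GFI1 replicate 2 (adjusted p 0.17), and its call was also lost without floating control replicate 3, under DESeq2 (adjusted p 0.0915) and with robust empirical Bayes (adjusted p 0.134). The interaction of 0.27 ± 0.17 (adjusted p 0.386) turned to -0.0183 without floating GFI1 replicate 2 and passed at 0.468 without replicate 3, so these libraries decide it.

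SESN2 (ENSG00000130766, chromosome 1, 28259527 to 28282491, plus strand) encodes sestrin 2, a leucine sensor that restrains mTORC1 and is induced by both p53 and ATF4. It was at 16.6, 17.3 and 15.04 CPM in attached control and 25.1, 25.5 and 27.1 CPM in attached GFI1 libraries. Levels after suspension were 17.6, 17.5 and 15.4 CPM in control and 26.0, 28.7 and 23.7 CPM in GFI1 cells. All 6 GFI1 libraries lay above all 6 control libraries, with overlap between floating and attached cells in each genotype. The gene was 1.59-fold higher with GFI1 when attached (0.67 ± 0.08, adjusted p 1.25e-07) and 1.55-fold higher when floating (0.63 ± 0.08, adjusted p 3.35e-07). The change with suspension was 0.05 in control cells (95% interval -0.14 to 0.23, adjusted p 0.721) and 0.01 in GFI1 cells (-0.15 to 0.17, adjusted p 0.935). SESN2 and ATF4 mRNA thus changed in opposite directions with GFI1.

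CHAC1 (ENSG00000128965, chromosome 15, 40952962 to 40956519, plus strand) encodes a glutathione-degrading enzyme downstream of ATF4. It was at 3.45, 2.61 and 3.10 CPM in attached control and 1.69, 1.66 and 1.25 CPM in attached GFI1 libraries. After suspension the gene was at 2.43, 2.53 and 1.87 CPM in control and 1.77, 1.88 and 1.34 CPM in GFI1 cells. The attached groups did not overlap and the floating groups did. All floating control libraries lay below all attached control ones. The gene was 1.98-fold lower with GFI1 when attached (-0.99 ± 0.22, adjusted p 0.000385). In floating cells the value was -0.46 ± 0.23 (adjusted p 0.0904), and the difference between these effects, the interaction, was 0.53 ± 0.32 (adjusted p 0.346). With suspension it was -0.42 ± 0.21 in control (adjusted p 0.12) and 0.11 ± 0.24 in GFI1 cells (adjusted p 0.783). With 25 to 58 counts per library, the 95% intervals of these values were wide, running from -0.38 to 0.60 for the last.

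ASNS (ENSG00000070669, chromosome 7, 97852118 to 97872542, minus strand) encodes asparagine synthetase. It was at 2.98, 1.74 and 2.12 CPM in attached control and 1.803, 1.43 and 1.40 CPM in attached GFI1 libraries. Floating libraries held 2.43, 2.47 and 2.10 CPM in control and 2.10, 2.04 and 1.79 CPM in GFI1 cells. The attached groups overlapped. The attached GFI1 value of -0.56 ± 0.23 passed the threshold (adjusted p 0.0401), but lost it under 5 of the 9 other settings and without any of 6 single libraries, where it ran from -0.609 to -0.329. None of its other comparisons among the pairs of groups by GFI1 or suspension passed (adjusted p 0.277 to 0.916). These values are uncertain: 99.5% of the bases of its canonical transcript in GENCODE v44 are also exons of AC079781.5 (ENSG00000284707) on the same strand. The part of this overlap in the low counts was not tested. AC079781.5 itself was at 2.64 ± 0.74, 2.47 ± 0.11, 3.79 ± 0.36 and 4.02 ± 0.66 CPM in attached control, attached GFI1, floating control and floating GFI1 cells (SD, n = 3 each).

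**Figure D3:**
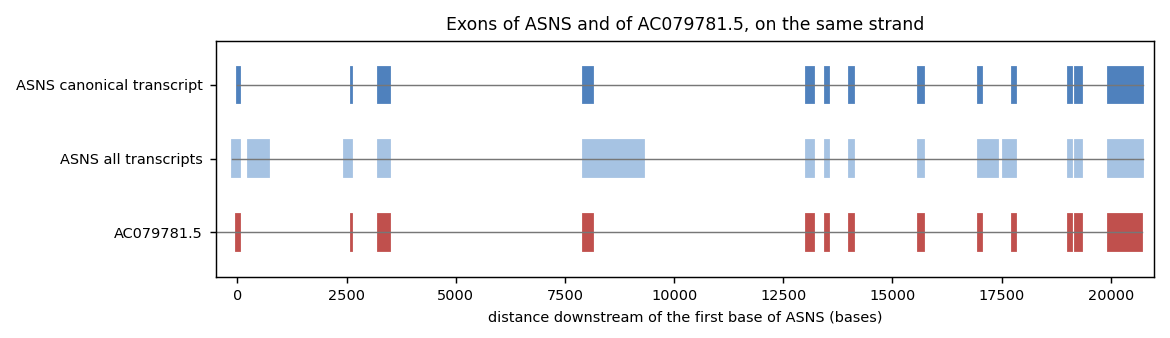
Exons of the canonical ASNS transcript, of all ASNS transcripts and of AC079781.5 in GENCODE v44, by distance in bases from the first base of the canonical transcript, with further AC079781.5 exons outside the plot on the left. Nearly every exon of the canonical transcript coincides with one of AC079781.5, which leaves 99.5% of its bases shared.

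For each gene the 4 group means were also set in order. Diagonal comparisons, floating GFI1 against attached control and attached GFI1 against floating control, were added after the data were seen so that each pair of neighbours had a test. Every neighbouring pair differed for DNAJB9 and XBP1. HSPA5 ran from attached GFI1, through attached control (not different, adjusted p 0.945), to floating GFI1 (higher than attached control, adjusted p 0.0109) and floating control (not different from floating GFI1). For DDIT3 the lower 3 groups did not differ from neighbour to neighbour (adjusted p 0.178 and 0.236), and for TRIB3 attached control and attached GFI1 cells did not. For SESN2 only the step from floating control to attached GFI1 passed (adjusted p 4.62e-07), and for ASNS and CHAC1 no step between neighbours did. Of the 10 genes, 8 were called between floating GFI1 and attached control cells, beside 68.5% of all genes, and 9 between attached GFI1 and floating control cells, beside 57.4%.

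The wider pathway was then described by 4 lists holding 109 other genes, of which DERL3 and FGF21 could not be tested. Genes were named by comparison, so a gene given for a single comparison may also differ in others. The list of 17 sensors and regulators of eIF2alpha went both ways with GFI1, with 6 higher and 8 lower when attached, and 5 higher against 9 lower when floating. Of all genes, 29.5% were higher and 32.8% lower when attached, and 29.3% and 31.1% when floating, the shares against which the GFI1 counts of each list are to be read. For suspension these shares were 19.6% higher and 20.5% lower in control cells and 15% and 16.3% in GFI1 cells. With suspension 5 of the 17 were higher and 3 lower in control cells, and 3 higher against 4 lower in GFI1 cells (medians -0.01 and -0.03). ERN1, which encodes IRE1, was lower with GFI1. It was at 30.7, 37.7 and 32.8 CPM in attached control, 23.7, 23.3 and 23.3 in attached GFI1, 46.0, 46.7 and 48.9 in floating control and 25.1, 25.7 and 24.2 CPM in floating GFI1 libraries. The GFI1 effect on ERN1 was -0.53 ± 0.07 when attached and -0.92 ± 0.07 when floating (adjusted p 3.07e-07 and 8.56e-12). Suspension raised it by 0.48 ± 0.07 in control cells (adjusted p 1.32e-06), the value in GFI1 cells was 0.09 ± 0.07 (adjusted p 0.351), and the difference passed the test (-0.39 ± 0.10, adjusted p 0.00861). EIF2AK2, the double-stranded RNA sensor PKR, was higher with GFI1 (0.65 ± 0.06 and 0.67 ± 0.06), and so was ATF6B, a relative of ATF6, when attached (0.61 ± 0.05). ATF6B also stood higher with GFI1 in floating cells, at 58.1, 58.2 and 63.6 CPM in control and 79.5, 76.1 and 82.7 CPM in GFI1 libraries. EIF2B3, a subunit of the exchange factor for eIF2, was lower with GFI1 (-0.54 and -0.61) and with suspension (-0.25 and -0.32). EIF2S1, which encodes eIF2alpha itself, fell with suspension in control and GFI1 cells (-0.29 ± 0.05 and -0.21 ± 0.05). EIF2AK3, which encodes PERK, rose with suspension in both genotypes (0.40 ± 0.09 and 0.50 ± 0.09). PPP1R15A, which encodes the eIF2alpha phosphatase subunit GADD34, rose with GFI1 when floating (0.55 ± 0.09) and with suspension in GFI1 cells (0.54 ± 0.08). Its floating GFI1 libraries spread, at 69.7, 89.9 and 63.5 CPM.

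The 23 ER folding genes were mostly lower with GFI1, and most rose after suspension in control cells. With GFI1, 4 were higher and 15 lower when attached, and 3 higher against 15 lower when floating (beside 32.8% and 31.1% of all genes lower), with medians of -0.27 and -0.35. After suspension of control cells 17 rose and the other 6 did not pass (median 0.19, beside 19.6% of all genes higher), and of GFI1 cells 10 rose, 1 fell and 12 did not pass (median 0.09, beside 15%). ERO1A, an oxidase that drives disulfide formation and also responds to hypoxia, rose most (1.01 ± 0.11 in control and 1.40 ± 0.12 in GFI1 cells). In floating GFI1 libraries ERO1A was at 177, 250 and 138 CPM, with replicate 2 highest and replicate 3 lowest, as for TRIB3. ERO1A is also on the list of ATF4 and CHOP targets. Its relative ERO1B rose by 0.82 ± 0.09 in control cells. PDIA4, a disulfide isomerase, fell by 0.66 on the log2 scale with GFI1 in floating cells and the prolyl isomerase PPIB fell by 0.57. TXNDC5, another disulfide isomerase, was lower with GFI1 when attached (-0.67 ± 0.11). Against the list's direction, DNAJC3, a cochaperone that inhibits PERK, was higher with GFI1 (0.83 ± 0.06 and 0.44 ± 0.06), the chaperone ERP44 was higher when attached (0.28) and CRELD2 in both states (0.25 and 0.25). SDF2L1 was the gene that fell with suspension in GFI1 cells (-0.28 ± 0.07).

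Of the 30 tested genes of ER quality control and export, 5 were higher and 16 lower with GFI1 when attached, and 4 higher against 20 lower when floating (beside 32.8% and 31.1% of all genes lower). After suspension 17 rose and 4 fell in control cells and 14 rose and 4 fell in GFI1 cells, beside 19.6% and 15% of all genes higher. EDEM3, a mannosidase that marks glycoproteins for disposal, had the highest GFI1 effects of the list, at 2.31-fold higher when attached and 2.00-fold higher when floating (1.21 ± 0.05 and 1.00 ± 0.04). The lectin OS9 was also higher (0.40 and 0.29). HERPUD1, which helps assemble the degradation complex of the ER membrane, was 1.74-fold lower with GFI1 when floating (-0.80 ± 0.07). In attached cells it was at 53.2, 43.9 and 47.2 CPM in control and 35.8, 36.7 and 33.8 CPM in GFI1 libraries. It rose with suspension by 0.69 ± 0.07 in control and by 0.33 ± 0.08 in GFI1 cells. SRPRB and SSR3, which serve protein entry into the ER, were lower with GFI1, SRPRB at -0.54 and -0.71 and SSR3 at -0.61 in attached cells. The COPII coat gene SEC24D rose by 0.69 ± 0.06 with suspension in control cells and the microsomal Hsp70-like HSPA13 by 0.51 ± 0.06 in GFI1 cells. WFS1 (-0.46 and -0.58) and EDEM2 (-0.36 and -0.42) fell with suspension in both genotypes.

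The list of ATF4 and CHOP targets held the largest changes in either direction. Of its 38 tested genes, 9 were higher and 26 lower with GFI1 when attached, and 7 higher against 20 lower when floating (beside 32.8% and 31.1% of all genes lower), with medians of -0.44 and -0.35. PHGDH and PSAT1 encode enzymes of serine synthesis. PHGDH was at 54.9, 49.5 and 53.7 CPM in attached control, 15.04, 17.1 and 14.8 in attached GFI1, 24.2, 27.5 and 25.7 in floating control and 6.29, 6.34 and 5.82 CPM in floating GFI1 libraries. It was lower with GFI1 by -1.75 ± 0.07 and -2.07 ± 0.09 log2 units in attached and floating cells, and PSAT1 was at -1.95 ± 0.05 in floating cells. The AP-1 family repressor JDP2 was at -1.75 ± 0.11 in attached cells. In the other direction, ATF3, a stress-induced factor, was higher by 1.64 ± 0.12 and 1.41 ± 0.11, and STC2, a secreted glycoprotein, by 1.15 ± 0.14 and 1.79 ± 0.13. All of these had adjusted p values from 1.12e-20 to 1.4e-07. With suspension the list split, 11 higher and 18 lower in control and 10 higher and 12 lower in GFI1 cells, beside 20.5% and 16.3% of all genes lower. KLHL24 (1.32 ± 0.08) and BBC3, which encodes the cell death protein PUMA (1.08 ± 0.08), led the rise in control cells, and STC2 (1.66 ± 0.13) that in GFI1 cells. STC2 was at 305, 425 and 214 CPM in floating GFI1 libraries, with replicate 2 highest and replicate 3 lowest, as for TRIB3. JDP2 (-1.12 ± 0.10) and CBS (-1.06 ± 0.28) led the fall in control cells, and PHGDH (-1.35 ± 0.09) and PSAT1 (-0.998 ± 0.05) that in GFI1 cells. CBS has a near-identical copy in GRCh38, and its values are uncertain for that reason.

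**Figure D4:**
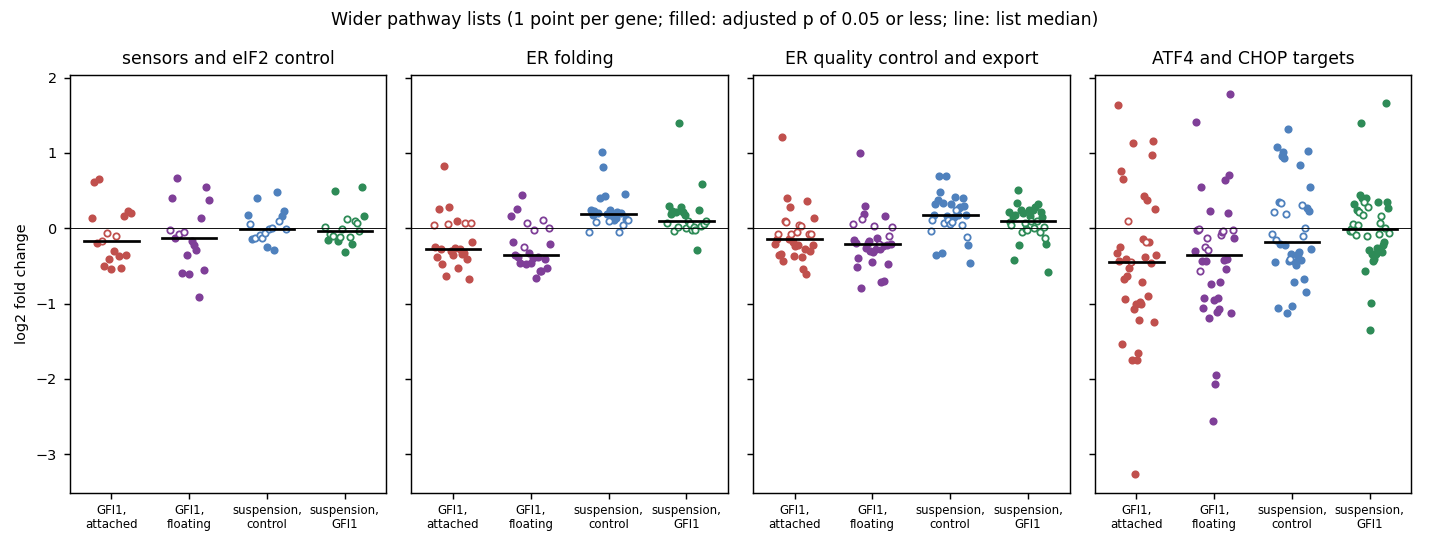
Log2 fold changes of the genes of the 4 wider lists in the comparisons by GFI1 and by suspension, 1 point per gene, filled where the adjusted p was 0.05 or less, with the list median as a line. The ER folding list lies mostly below 0 with GFI1 (medians -0.27 and -0.35) and above 0 with suspension (0.19 and 0.09), and the ATF4 and CHOP targets spread most, from -3.26 to 1.79.

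The interaction asks whether suspension acted differently in the presence of GFI1. Among the wider lists, 1 of 17 sensors and regulators, 3 of 23 folding genes, 4 of 30 quality control and export genes and 18 of 38 ATF4 and CHOP targets passed, 9 of the last in each direction, beside 10.8% of all genes. Leaving out 1 library moved these counts: sensors and regulators to 2 and 4 without floating GFI1 replicates 1 and 3, folding genes to 5 without floating GFI1 replicate 3, and ATF4 and CHOP targets to 11 without floating control replicate 1. Quality control and export genes came to 2 without any of attached control replicate 3, attached GFI1 replicate 2, floating control replicates 1 and 2 and floating GFI1 replicate 1. Floating GFI1 cells held 1.93-fold more GFI1 mRNA than attached ones, and the part of this in the interaction was not tested.

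**Figure D5:**
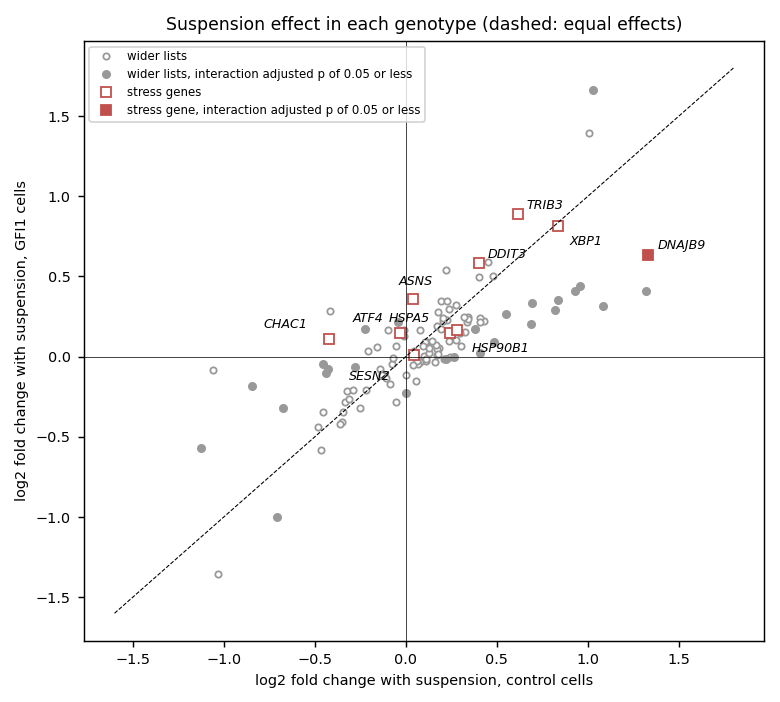
Log2 fold change with suspension in GFI1 cells against that in control cells for the 10 stress genes (squares) and the wider lists (circles), filled where the interaction had an adjusted p of 0.05 or less, with a dashed line for equal effects. DNAJB9, at 1.33 and 0.63, is the only filled square and lies below the line, and TRIB3 and DDIT3 lie above it without passing the test.

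The genes whose promoters hold the ER stress element were also counted, a choice made after the stress genes had been seen to hold it. Of 16 such genes tested, 10 rose and 1 fell with suspension in control cells and 7 rose and 1 fell in GFI1 cells. Outside the 10 stress genes, 7 of 13 rose and 1 fell in control cells and 4 rose and 1 fell in GFI1 cells, beside 19.6% and 15% of all genes higher. Of those that rose in control cells, CANX, CRELD2, ERO1B and PDIA6 are also on the ER folding list, so this count partly repeats that of the list. Examples in control cells were ERO1B (0.82 ± 0.09), FICD, which modifies BiP (0.38 ± 0.10), and CRELD2 (0.23 ± 0.05), while SYNPO fell (-0.88 ± 0.05). With GFI1 these 13 genes went both ways, 5 higher and 4 lower in attached and 5 and 5 in floating cells, or 38.5% higher in either state, beside 29.5% and 29.3% of all genes. Of 323 tested genes with the amino acid response element letters, 89 were higher and 142 lower with GFI1 in attached cells and 79 and 142 in floating cells, or 44% lower in either state, beside 32.8% and 31.1% of all genes.

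Across the 12 libraries the stress genes did not move as one. The Pearson correlation of log2 CPM over all libraries ran from -0.804 for ATF4 and SESN2 to 0.954 for HSP90B1 and XBP1. Such values mainly reflect the 4 group means. After the group means were removed, which leaves only the deviations of replicates, the Pearson correlation of log2 CPM was 0.927 for ATF4 and TRIB3 (Spearman 0.902), 0.911 for HSPA5 and HSP90B1 (0.867) and 0.856 for DNAJB9 and ATF4 (0.706). XBP1 and TRIB3 gave -0.704 by Pearson but -0.154 by Spearman. ATF4 and SESN2 gave 0.701 within groups, and HSP90B1 and XBP1 gave 0.0765. The median over the 45 pairs was 0.472, with 11 pairs over 0.7 and 2 under -0.5, so most replicate deviations went the same way. These are descriptions over 12 libraries that share scaling factors. Among 11876 protein-coding genes outside the 10, those most like XBP1 over the 12 libraries were CAPG, ITPRID2 and TMEM30A (Pearson 0.992, 0.989 and 0.987). Those most like DNAJB9 were NET1, MTMR14 and RICTOR (0.988, 0.977 and 0.977), and those most like SESN2 were LAT2, PHKA1 and LRRC4B (0.986, 0.985 and 0.984). For HSP90B1 they were SEC24B, a COPII coat gene, SLC16A6 and PHLDA1 (0.982, 0.979 and 0.977). For HSPA5 they were the stress cytokine GDF15, MTMR14 and TRIQK (0.948, 0.947 and 0.941). GDF15 is also on the list of ATF4 and CHOP targets. These likenesses over all libraries likewise mainly reflect the group means.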

How the data were processed

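RNA was measured by poly-A selected RNA-Seq on an Illumina NovaSeq system in 12 libraries of A549 cells. The deposited values are raw counts per gene. According to the methods of the study, the authors aligned reads with Hisat2 to GRCh38 and counted them with featureCounts, whereas the submitters' processing notes name Bowtie2 and HTSeq with hg38. These sources were not reconciled. The annotation release and the strand setting are not given in the sources used here. The deposited table also lists a gene length, from which FPKM was computed.

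The labels gave each library's group and replicate number. The main test was edgeR 4.0.16 under R 4.3.3, although the study used DESeq2. Low genes were removed with filterByExpr (minimum count 10, minimum total 15), TMM set the scaling, and a single quasi-likelihood fit of 4 group means took in all 12 libraries (biological coefficient of variation 4.86%). P values are two-sided, from edgeR, adjusted by Benjamini-Hochberg over 17829 genes in each comparison, and called at 0.05 or less with no fold threshold, after the methods of the study. Intervals are 95% intervals from this model. Log2 CPM used a prior count of 2. The code was tested on simulated data.

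The 10 members and the lists were chosen with earlier results of these data known. The text names GFI1, the 10 genes and, per list and comparison, at most 2 called genes at either extreme of log2 fold change, given no overlap between groups and an average log2 CPM not under 1. Genes of the promoter search were named after their values were seen. For likeness, the 3 protein-coding genes with the highest Pearson r were taken. Exon overlap and the XBP1 intron came from GENCODE v44 and promoters from RefSeq.

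One marker gene is not reported here. Alternatives were DESeq2 1.42.0, RLE, upper quartile and library size scaling, no filter, at least 10 counts in every library, only the groups compared, robust empirical Bayes, a replicate block, a 2-fold threshold, another gene length, and leaving out each library.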

Additional observations from a re-analysis of the deposited data

Results flagged for a closer look

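The difference between the suspension effects was examined in 43 genes, the stress genes and those named by rule from the wider lists. Of these, 13 passed the test of that difference, beside 10.8% of all genes (edgeR's quasi-likelihood interaction, Benjamini-Hochberg over all genes). Genes of the wider lists were named for extreme changes with GFI1 or suspension in the same libraries. That choice favours genes with a difference, so the count cannot be read as an excess over all genes. Values are the log2 change with suspension in GFI1 cells minus that in control cells. Among the stress genes, DNAJB9 stood at -0.698 (adjusted p 0.000425). Among genes of sensing and folding, ERN1 was at -0.389 (0.483 in control and 0.0942 in GFI1 cells), DNAJC3 at -0.386 (0.407 and 0.0209), PPIB at -0.236 (0.219 and -0.0169) and ERO1B at -0.53 (0.818 and 0.288). Among genes of quality control and export, EDEM3 was at -0.21 (0.381 and 0.172), HERPUD1 at -0.36 (0.692 and 0.332) and SEC24D at -0.481 (0.687 and 0.206). Several of these genes were named for their large change with suspension in control cells, so the sign of the difference is a description. Among ATF4 and CHOP targets, KLHL24 was at -0.911 (1.32 and 0.408) and BBC3 at -0.767 (1.08 and 0.318), while STC2 was at 0.635 (1.03 and 1.66), JDP2 at 0.551 (-1.12 and -0.572) and PSAT1 at -0.289 (-0.709 and -0.997). The adjusted p values ran from 1.4e-06 for KLHL24 to 0.0347 for STC2. The part of the higher GFI1 level in floating GFI1 cells was not tested.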

How the results depend on the processing

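Of 440 fold changes of stress genes under settings other than leaving out a library, 420 kept their direction and their side of the threshold. Requiring a 2-fold change left 1 stress gene in attached cells (GFI1 effect), 1 in floating cells, 1 with suspension of control cells, 0 with suspension of GFI1 cells and 0 for the interaction. In the same order it left 0, 0, 0, 0 and 0 sensors and regulators, 0, 0, 1, 1 and 0 folding genes, 1, 0, 0, 0 and 0 quality control genes and 13, 10, 7, 3 and 0 ATF4 and CHOP targets. Library size only moved the stress gene median to 0.0449 in attached and -0.102 in floating cells, and the share of higher genes among all called genes from 47.4% and 48.5% to 61.5% and 61.4%. The HSPA5 value in attached cells, near 0, turned positive with DESeq2 (0.00461), RLE (0.00462), upper quartile scaling (0.048), library size only (0.143, the only one of these to be called), at least 10 counts in every library (0.0223) and only the groups compared (0.0265). In floating cells it did so with library size only (0.0352). With no filter, 2 stress genes passed the interaction, TRIB3 being the other (0.287, adjusted p 0.0016). The count of sensors and regulators past the interaction was 3 with at least 10 counts in every library, and 2 with RLE, library size only, no filter, robust empirical Bayes and the replicate block. The cause of these changes was not tested.

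With the longest transcript in place of the listed gene length, FPKM in attached control cells was 151 for HSPA5, 162 for HSP90B1, 7 for DNAJB9, 70.5 for XBP1, 124 for ATF4, 5.28 for DDIT3, 47.6 for TRIB3, 0.956 for ASNS and 2.01 for CHAC1, and SESN2 and DDIT3 exchanged ranks.

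Without single libraries, near-zero values crossed 0 for HSPA5 with GFI1 in attached cells (-0.0233 to 0.0192), for ATF4 (-0.055 to 0.0025), ASNS (-0.13 to 0.27) and SESN2 (-0.0106 to 0.106) with suspension of control cells, for CHAC1 (-0.0163 to 0.246) and SESN2 (-0.0756 to 0.0797) with suspension of GFI1 cells, and for the interactions of XBP1 (-0.144 to 0.0388), TRIB3 (-0.0183 to 0.468) and SESN2 (-0.125 to 0.0348). The interaction count ran from 1 to 3 for stress genes (3 without floating GFI1 replicate 3), 1 to 4 for sensors and regulators, 2 to 5 for folding, 2 to 6 for quality control and 11 to 20 for ATF4 and CHOP targets. Sensors and regulators with suspension of GFI1 cells ran from 4 (without attached GFI1 replicate 3) to 8.

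Replicate numbers did not pair the libraries: over 18 pairs with the same number, correlations of deviations ran from -0.0306 to 0.0311, and 3 of 12 libraries matched their own number best. The replicate block left 7, 7, 6, 7 and 1 stress genes in the 5 comparisons, the counts found without it.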

Other observations

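NUPR1, a stress-induced chromatin protein gene among the ATF4 and CHOP targets, had the lowest fold change of the wider lists but lay under the level required for named genes. It had 88, 91 and 102 counts in attached control, 4, 20 and 9 in attached GFI1, 66, 61 and 78 in floating control and 8, 16 and 14 in floating GFI1 libraries. All GFI1 libraries lay below all control libraries, and the log2 fold change with GFI1 was -3.26 ± 0.28 in attached and -2.56 ± 0.28 in floating cells (edgeR, adjusted p 1.54e-10 and 1.68e-08). It was named after its values were seen.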
